A study of Drosophila melanogaster with 6 samples.

Results

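The tetraspanin genes were followed in Drosophila S2 cells, an embryo-derived line with macrophage features, after RNA interference against Brr2, the helicase that opens the U4/U6 duplex in the spliceosome. Members were all genes whose symbol starts with Tsp and a digit, together with lbm, which gave 35 of the 17830 genes listed. Of these, 18 lie in the Tsp42E cluster and 17 elsewhere in the genome. The related gene TM4SF is outside this rule. The compared groups were 3 libraries labelled Brr2 knockdown and 3 libraries labelled WT, both from S2 cells given RNA interference; what the control RNA was directed against is not stated in the labels. Per the labels' protocol, cells took up double-stranded RNA from their medium, although the titles read shBrr2 and shControl. The labels do not state whether replicates were grown separately, so the p-values here cover only the spread among the 6 libraries and that spread may be technical.

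Tetraspanins are small membrane proteins that cross the bilayer several times and hold other membrane proteins, such as integrins and membrane proteases, together in patches of the plasma membrane and of endosomes. Flies carry a tandem array of such genes in cytological band 42E and further members elsewhere in the genome. Named roles in the fly are few. Tsp3A, Tsp26A and Tsp86D act on the metalloprotease Kuzbanian and on Notch, Tsp2A builds smooth septate junctions with Ssk, mesh and hoka, lbm (late bloomer) acts in synapse formation by motor neurons, and Tsp42Ej (Sunglasses) is a lysosomal protein of photoreceptors.

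The libraries held 127654975 to 147620403 estimated counts. The Brr2 gene, l(3)72Ab, was at 108.5, 94.0 and 99.8 CPM (TMM-scaled counts per 1e6) in knockdown libraries, against 158.1, 198.5 and 221.1 CPM in control libraries. Of 11590 genes tested with edgeR's quasi-likelihood test, 17.7% had a Benjamini-Hochberg adjusted p under 0.05, and these are called here. Of the plasmatocyte markers, srp (84.3 to 116.2 CPM over the 6 libraries) and crq (183.5 to 345.0 CPM) were well represented, whereas NimC1 and Sr-CI were under 1 CPM in every library and Hml reached 1.29 CPM. The 8 markers of this list moved both ways. Pxn was called lower, with 0.843 to 1.64 CPM in knockdown libraries against 7.14 to 11.1 CPM in control libraries (log2 -2.75, edgeR adjusted p = 0.00423), and He was called higher, with 1.73 to 3.89 CPM against 0.165 to 0.473 CPM (log2 3.26, edgeR adjusted p = 0.00903). The level of eater was 9.2 to 12.6 CPM in knockdown libraries and 13.0 to 29.8 CPM in control libraries (edgeR adjusted p = 0.106; called lower by DESeq2, 0.0246). Over the lists for other cell types, the 3 muscle markers summed to 8.55 to 11.4 CPM in knockdown libraries and 2.47 to 3.82 CPM in control libraries, the 3 neuron markers to 22.3 to 25.4 and 25.9 to 32.2 CPM, and the 2 glia markers to 16.2 to 21.2 and 26.6 to 36.6 CPM. Most of these sums came from Mlc2, called higher (log2 2.11, edgeR adjusted p = 0.00422), elav, not called (0.118), and moody, called lower (log2 -0.86, edgeR adjusted p = 0.0194; held in 2 of 6 fits without 1 library). Each of the germline, fat body and gut lists summed to at most 1.76 CPM in any library. The neuron marker nSyb and the glia marker repo stayed under 0.6 CPM in all libraries, the neuron marker Syt1 reached 2.18 CPM in knockdown replicate 3, and the part of these levels in the results was not tested. In RNA from bulk cells, a change in the share of cells that express a gene and a change in RNA per cell cannot be told apart.

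Of the 35 tetraspanin genes, 34 had at least 1 count and 27 passed the filter on low counts. In knockdown cells 5 genes were called higher, Tsp42Eg, Tsp42Ec, Tsp42Ea, Tsp42Ed and Tsp66E, and 2 were called lower, Tsp96F and Tsp3A. That is 5 of 27 higher, or 18.5%, against 8.05% of all tested genes, and 2 of 27 lower, or 7.41%, against 9.63%. No tetraspanin was called lower without control replicate 1 or knockdown replicate 3 (0 genes), 1 was without control replicate 2 or knockdown replicate 1, and 3 were without control replicate 3 or knockdown replicate 2. Over all genes, these fits called 281 and 359, 476 and 287, and 1011 and 1115 genes lower, in the same order, in place of 1116. With only total counts as the scaling, which moved the log2 fold change of the median gene by -0.34, the split was 5 higher and 8 lower, while over all genes 573 were higher and 2788 lower in place of 933 and 1116; with upper quartile scaling these were 1227 and 809. Replicate numbers were taken to pair the libraries, but the 5 higher and 2 lower calls are from the fit without a replicate block, which leaves the pairing out. With a replicate block 7 tetraspanin genes were higher and 4 lower, where 25.6% of all genes were called. The block added lbm, Tsp42El and Tsp26A as higher and Tsp2A and Tsp39D as lower, and Tsp42Ec was no longer called. DESeq2 and limma voom, cited below for single genes, called 29.6% and 18.3% of genes.

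**Figure D1:**
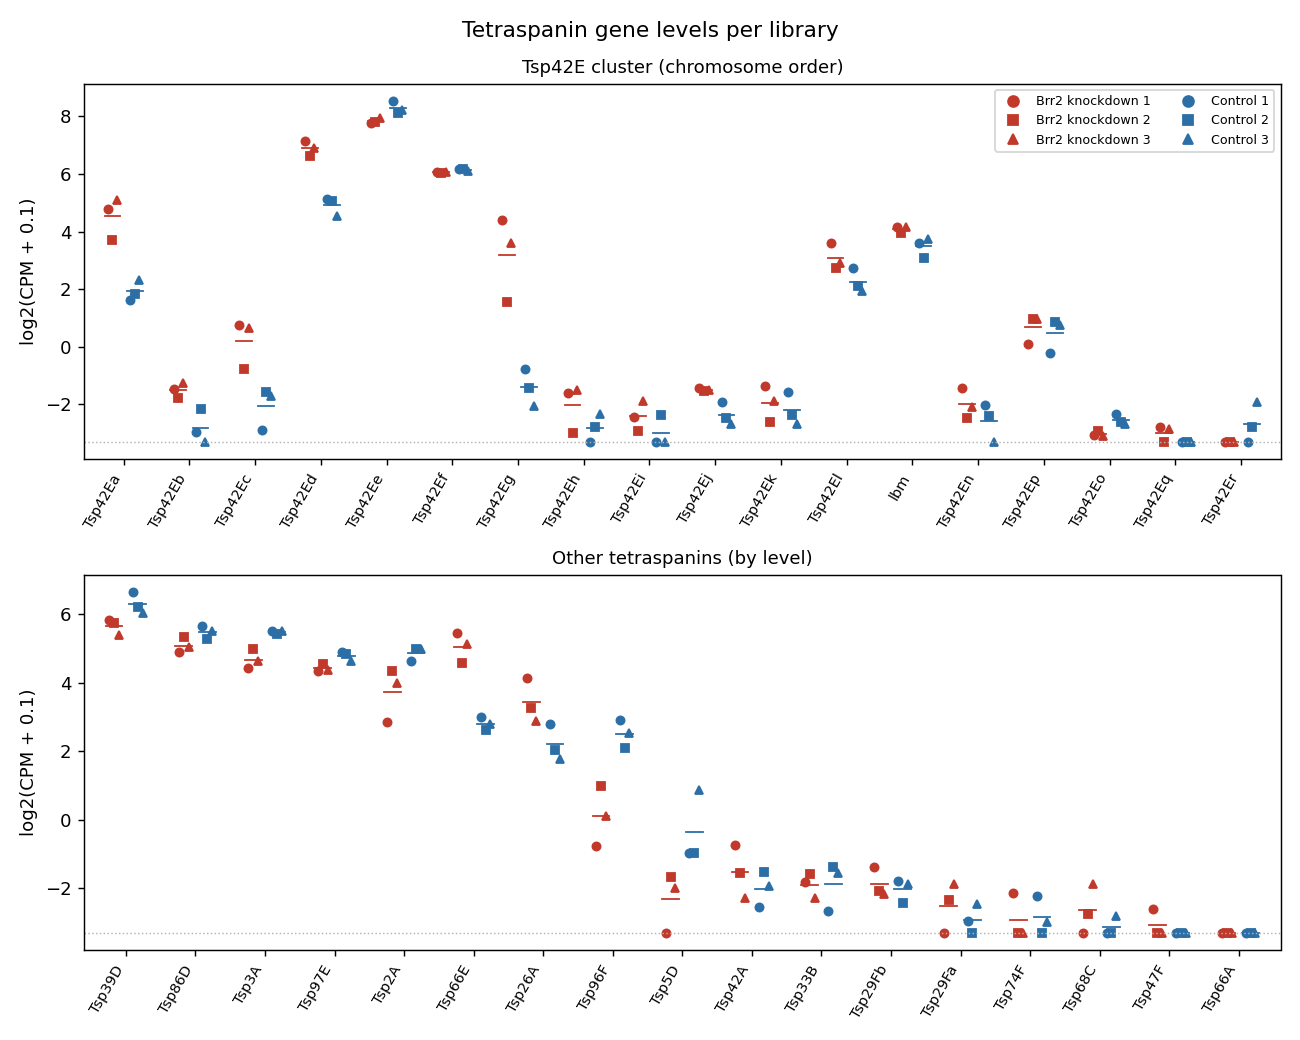
Level of each tetraspanin gene in each library, as log2(CPM + 0.1), with knockdown libraries in red and control libraries in blue; horizontal bars are group means on that scale and the dotted line marks 0 CPM. Tsp42Ea, Tsp42Ec, Tsp42Ed, Tsp42Eg and Tsp66E stand higher in all 3 knockdown libraries, and Tsp96F and Tsp3A lower.

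The Tsp42E cluster spans 73.4 kb of chromosome 2R (BDGP6.54, 6992676 to 7066113), with 15 of its genes on the plus strand and 3 on the minus strand. All 18 members had counts, 14 were tested, 4 rose after Brr2 knockdown (28.6%, against 8.05% of all tested genes) and 0 fell (against 9.63%). The largest change was in Tsp42Eg (FBgn0033128; 7028911 to 7033233, plus strand, 4 introns). It was at 21.2, 2.8 and 11.9 CPM in knockdown libraries, against 0.483, 0.272 and 0.141 CPM in control libraries. The groups were apart, but the knockdown libraries differed widely among themselves, with replicate 2 the lowest. Tsp42Eg rose 40.1-fold (log2 5.33, SE 0.835, edgeR adjusted p = 0.00987), and its log2 fold change was 4.62 without knockdown replicate 1.

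Tsp42Ea, the first gene of the cluster (FBgn0029508; 6992676 to 7004259, plus strand, 5 introns), had 27.4, 13 and 33.9 CPM in knockdown libraries, against 2.95, 3.48 and 4.86 CPM in control libraries. All knockdown libraries lay above all control libraries, again with knockdown replicate 2 lowest. It rose 6.58-fold (log2 2.72, SE 0.378, edgeR adjusted p = 0.00711). Its exons share 97 bases with those of CG30159 on the same strand. That gene had 25.6, 23.7 and 25.0 CPM in knockdown libraries, against 34.2, 28.2 and 34.4 CPM in control libraries. The knockdown libraries of CG30159 lay below its control libraries, without a call (log2 -0.38, SE 0.123, edgeR adjusted p = 0.0747). CG30159 was called lower with the replicate block (0.0464), DESeq2 (0.0436) and total counts (0.0184).

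Tsp42Ed (FBgn0029507; 7009498 to 7011739, minus strand, 4 introns) had 142.0, 97.6 and 119.4 CPM in knockdown libraries, against 34.7, 33.3 and 23.3 CPM in control libraries. The groups were far apart relative to their spread, and this was the member with the largest absolute gain. The rise was 3.93-fold (log2 1.97, SE 0.209, edgeR adjusted p = 0.00314). Tsp42Ec, the neighbour beyond its 3′ end (FBgn0033124; 7006442 to 7008622, plus strand, 2 introns), was a low gene, at 1.58, 0.479 and 1.48 CPM in knockdown libraries, against 0.035, 0.236 and 0.203 CPM in control libraries, from 60 to 198 counts against 5 to 33. The groups did not overlap. It rose by 2.89 on the log2 scale (SE 0.752, edgeR adjusted p = 0.0404), a call that did not hold with the replicate block (0.061), with limma voom (0.0596), with no filter (0.0791) and without any 1 library except knockdown replicate 2 (0.0684 to 0.131). The calls of Tsp42Eg, Tsp42Ea, Tsp42Ed and, outside the cluster, Tsp66E were kept under every alternative that was run.

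Tsp42Ee (FBgn0029506; 7012254 to 7018362, plus strand) had the highest level of all tetraspanin genes in both groups. It had 215.9, 223.5 and 246.0 CPM in knockdown libraries, against 373.9, 275.3 and 300.0 CPM in control libraries. The knockdown libraries lay below the control libraries, but the difference did not pass the test (log2 -0.47, SE 0.152, edgeR adjusted p = 0.0739); DESeq2 called it lower (0.0222), as did scaling by total counts (0.0136). Tsp42Ef (FBgn0033127) had 67.6, 64.7 and 67.0 CPM in knockdown libraries, against 71.6, 72 and 67.9 CPM in control libraries, a log2 fold change of -0.09 (SE 0.103, edgeR adjusted p = 0.59), which was 0.03 with upper quartile scaling and -0.42 with total counts, where it was called lower (0.0499). Both lie between the called genes Tsp42Ed and Tsp42Eg.

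Further along the array, lbm (FBgn0016032) had 17.7, 15.4 and 17.9 CPM in knockdown libraries, against 12.1, 8.42 and 13.4 CPM in control libraries. Tsp42El (FBgn0033134) had 12.1, 6.62 and 7.4 CPM in knockdown libraries, against 6.51, 4.22 and 3.68 CPM in control libraries. In both genes the groups did not overlap, yet neither passed the test (log2 0.59, SE 0.195, edgeR adjusted p = 0.0791 for lbm, and log2 0.86, SE 0.312, edgeR adjusted p = 0.0999 for Tsp42El). With the replicate block both were called higher (edgeR adjusted p = 0.0308 and 0.0192), as with DESeq2 (0.0458 and 0.0352); upper quartile scaling (0.0454) and a minimum mean of 1 CPM (0.0491) also called lbm. Tsp42Ep had 0.962, 1.86 and 1.85 CPM in knockdown libraries, against 0.763, 1.69 and 1.57 CPM in control libraries, with overlapping groups (edgeR adjusted p = 0.736); its exons cover those of Tsp42Eo on the other strand over 889 bases, and whether counting used strand is not stated.

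The remaining 9 cluster genes were under 1 CPM on average in both groups, and edgeR called none. Tsp42Ej, the Sunglasses gene, was at 0.266, 0.24 and 0.254 CPM in knockdown libraries, against 0.161, 0.0788 and 0.0553 CPM in control libraries, so that the groups did not overlap (edgeR adjusted p = 0.142). Tsp42Eb lies within the span of Tsp42Ea on the same strand, and its exons share no bases with other genes. Whether Tsp42Eb took up intron reads of Tsp42Ea was not tested. It had 28, 24 and 42 counts in knockdown libraries, against 4, 17 and 0 in control libraries. These values equal those of CG30160, further along the array, in 5 of 6 libraries and differ by 1 count in the other. The 2 genes may therefore not be separate measurements, and the cause of the likeness was not tested. Tsp42Eh, Tsp42Ek and Tsp42En had log2 fold changes of 1.81, 0.42 and 1.04 with overlapping groups. Tsp42Ei, Tsp42Eo, Tsp42Eq and Tsp42Er were too low to test. Tsp42Eo had 2, 4 and 2 counts in knockdown libraries, against 14, 9 and 9 in control libraries, so that the groups did not overlap. Tsp42Er had 0 counts in each knockdown library, against 0, 6 and 27 in control libraries; 3 counts, the limit that a count of 0 allows, correspond to 0.0184 to 0.0275 CPM per library, counting error only.

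**Figure D2:**
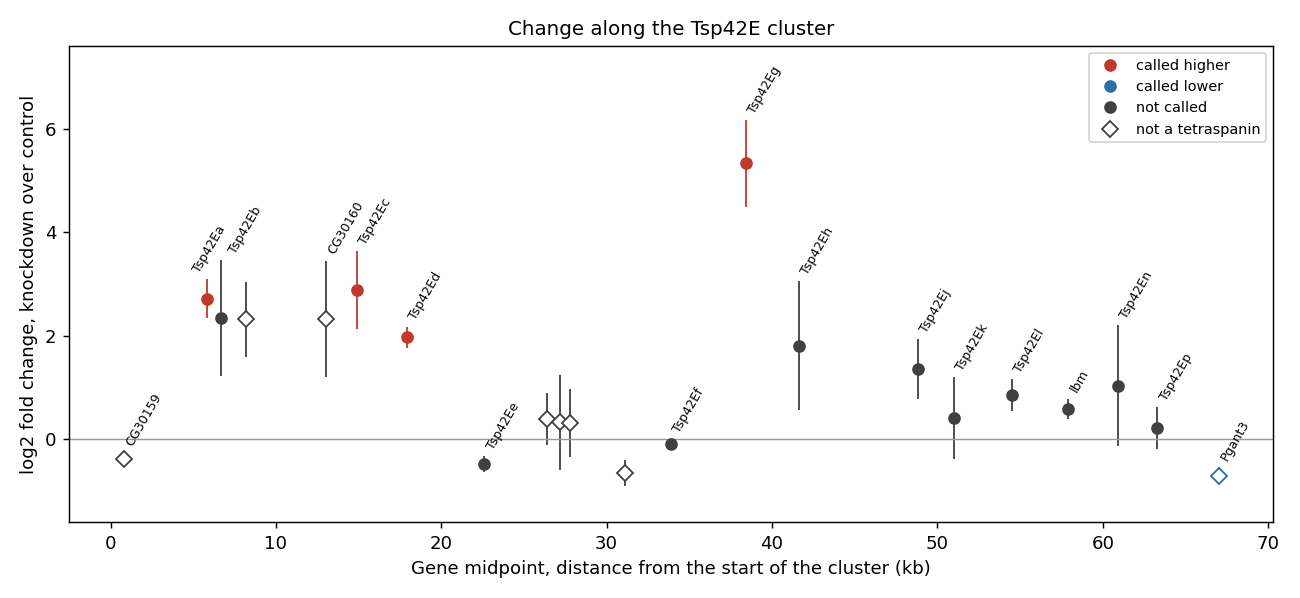
Log2 fold change, knockdown over control, with its standard error, for the tested genes of the Tsp42E cluster against their distance from the start of the cluster in kb; circles are tetraspanins, open diamonds other genes and a transposon copy in the span, and colour marks the edgeR call. Tsp42Ea, Tsp42Ec, Tsp42Ed and Tsp42Eg are called higher, while Tsp42Ee and Tsp42Ef, between Tsp42Ed and Tsp42Eg, sit at -0.47 and -0.09.

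Among the genes that lie within and around the cluster, edgeR called none higher with all 6 libraries; DESeq2 called the flanking gene CG12831 higher, a gene under 1 CPM in every library (edgeR log2 3.02, SE 1.13, adjusted p = 0.108; DESeq2 0.0281). The flanking gene CG12836, too low to test with all libraries, had 14, 0 and 41 counts in knockdown libraries, against 0 in each control library, and was called in 1 of the 6 fits without 1 library (0.0414). Of 13 other entries in the span 8 were tested, 0 were called higher (against 8.05% of all tested genes) and 1 was called lower (12.5%, against 9.63%). This was Pgant3, a glycosyltransferase gene near the far end, with 21.4, 26.9 and 23.0 CPM in knockdown libraries, against 43.5, 41.5 and 31.0 CPM in control libraries (log2 -0.70, SE 0.165, edgeR adjusted p = 0.0299). Its groups were apart, and it kept no call with no filter (0.0527) or without any 1 library except replicate 3 of the controls or replicate 2 of the knockdown (0.0991 to 0.113). The pseudogene CR42785, inside an intron of Tsp42Ea, had 10, 14 and 14 counts in knockdown libraries, against 2, 2 and 5 in control libraries (edgeR adjusted p = 0.0666). Of the 5 nearest protein-coding genes on each side, 6 were tested, 0 were called higher and 1 lower (16.7%), against 8.05% and 9.63% of all tested genes. The lower one was the cytochrome P450 gene Cyp6u1 (log2 -0.62, SE 0.16, edgeR adjusted p = 0.04). Its call was lost with upper quartile scaling, with no filter and without any 1 library except control replicate 3 (0.0571 to 0.134). With so few genes tested, 0 higher calls do not set these neighbours apart from all genes.

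Among the 17 tetraspanin genes outside the cluster, 16 had counts, 13 were tested, 1 was called higher and 2 lower. Tsp66E (FBgn0035936; BDGP6.54, chromosome 3L, 8912499 to 8932065, plus strand, 6 introns) had 44.1, 23.8 and 34.9 CPM in knockdown libraries, against 7.91, 6.0 and 6.8 CPM in control libraries. The groups were far apart relative to their spread, with replicate 2 once more the lowest of the knockdown. It rose 4.97-fold (log2 2.31, SE 0.243, edgeR adjusted p = 0.00307). Its exons share 173 bases with mfr on the other strand.

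Tsp96F (FBgn0027865; chromosome 3R, 25872900 to 25881427, minus strand, 4 introns) had 0.486, 1.87 and 0.987 CPM in knockdown libraries, against 7.49, 4.16 and 5.69 CPM in control libraries. The groups were apart, and knockdown replicate 2 was nearest to the controls. It fell to 19.3% of the control level (log2 -2.37, SE 0.491, edgeR adjusted p = 0.0205); the log2 fold change was -2.98 without knockdown replicate 2, and Tsp96F no longer passed without control replicate 1 (0.0723) or knockdown replicate 3 (0.0708).

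Of the tetraspanins that act on Kuzbanian in the fly, Tsp3A (FBgn0040334; chromosome X, 2617758 to 2619738, minus strand, 2 introns) had 21.3, 31.3 and 24.8 CPM in knockdown libraries, against 46.0, 43.2 and 45.4 CPM in control libraries. The control libraries were tightly grouped and all above the knockdown libraries. Tsp3A fell to 57.5% of the control level (log2 -0.80, SE 0.157, edgeR adjusted p = 0.0175), a call that held only with all libraries or without replicate 3 of the controls or replicate 2 of the knockdown (otherwise 0.055 to 0.0669 for 1 library left out). Tsp86D (FBgn0037848) had 29.5, 40.4 and 32.6 CPM in knockdown libraries, against 50.8, 39.0 and 45.9 CPM in control libraries, and the groups overlapped (log2 -0.40, SE 0.162, edgeR adjusted p = 0.127; called lower with total counts, 0.0302). Tsp26A (FBgn0031760) went the other way, with 17.5, 9.54 and 7.31 CPM in knockdown libraries, against 6.91, 4.03 and 3.33 CPM in control libraries. Its groups did not overlap; it did not pass the test (log2 1.27, SE 0.396, edgeR adjusted p = 0.0677) and was called higher with the replicate block (0.00804), with DESeq2 (0.00584) and with a minimum mean of 1 CPM (0.0491).

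The septate junction gene Tsp2A (FBgn0024361) had 7.09, 20.0 and 15.9 CPM in knockdown libraries, against 24.6, 31.7 and 31.9 CPM in control libraries. Knockdown replicate 1 was the lowest and the groups did not overlap. At a log2 fold change of -1.04 (SE 0.348) it did not pass (edgeR adjusted p = 0.0809), and with the replicate block Tsp2A was called lower (0.0226), as it was with DESeq2 (0.00886), with total counts (0.0353) and without knockdown replicate 2 (0.0494). Tsp39D (FBgn0032943) had 56.4, 53.9 and 42.2 CPM in knockdown libraries, against 100.7, 73.9 and 65.9 CPM in control libraries. It too had separate groups without a call (log2 -0.66, SE 0.195, edgeR adjusted p = 0.0588) and was called lower with the replicate block (0.0179), DESeq2 (0.00957), total counts (0.00967) and without control replicate 3 (0.0436).

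Tsp97E (FBgn0039465) had 20.0, 23.5 and 20.6 CPM in knockdown libraries, against 29.5, 28.4 and 24.9 CPM in control libraries, separate groups with a log2 fold change of -0.37 (SE 0.127, edgeR adjusted p = 0.0882; called lower with total counts, 0.014). The other 9 members outside the cluster were under 1 CPM on average in both groups, and edgeR called none. Tsp5D had the most extreme fitted value among them, log2 -2.77 (SE 1.13, edgeR adjusted p = 0.13; called lower by DESeq2, 0.0248), from 0, 27 and 20 counts in knockdown libraries, against 58, 57 and 279 in control libraries; the control mean rests mainly on replicate 3. Tsp29Fa, Tsp29Fb, Tsp33B and Tsp42A had overlapping groups, and Tsp47F, Tsp66A, Tsp68C and Tsp74F were too low to test, Tsp66A being listed at 0 in all 6 libraries. The exons of Tsp66A, 2537 bases long, share bases with CG42661 and CG42660 on the same strand. How reads in shared bases were counted is not given, so this 0 cannot be read as absence of its RNA.

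**Figure D3:**
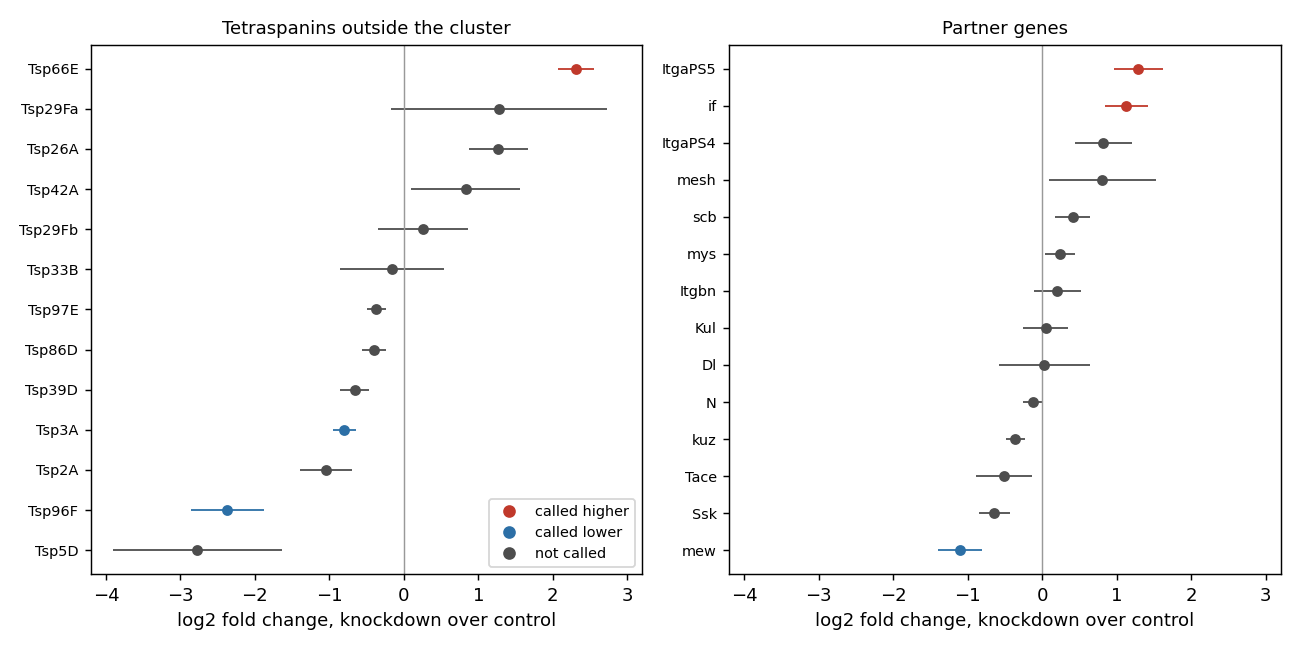
Log2 fold change, knockdown over control, with its standard error, for the tested tetraspanin genes outside the cluster (left) and the tested genes of the partner list (right); colour marks the edgeR call. Tsp66E is called higher at 2.31 and Tsp96F and Tsp3A lower at -2.37 and -0.80, while in the partner list ItgaPS5 and if are called higher and mew lower.

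Side by side, the cluster had 4 of 14 tested genes higher and 0 lower, and the other tetraspanins 1 of 13 higher (7.69%) and 2 lower (15.4%), where 8.05% and 9.63% of all tested genes were called. The median log2 fold change over tested members was 1.20 in the cluster, -0.37 outside it and -0.02 over all tested genes. Of the 14 cluster values 12 were positive, against 5 of the 13 others. The knockdown libraries lay entirely above the control libraries for 8 cluster genes and entirely below for 2, against 2 above and 6 below among the others; over all tested genes 20.1% were above, 21.7% below and 41.8% either. The filter on low counts can be passed through the libraries of a single group. Low genes that are high in knockdown can therefore enter these values. Over all members with counts, on the scale of log2(mean CPM + 1), the medians were 0.14 for 18 cluster genes and -0.01 for 16 others. The median was 0.01 over all genes with counts. On this scale 14 cluster genes were positive and 4 negative, and of the others 7 and 9. In both groups 18 of the 35 genes were under 1 CPM, where the added 1 CPM draws ratios toward no change. These values describe the members, and the difference between the 2 sets of genes was not tested.

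Summed over the cluster, levels were 507.9, 426.6 and 508.2 CPM in knockdown libraries, against 503.8, 399.5 and 415.6 CPM in control libraries, so the totals overlapped. Without Tsp42Ee the cluster summed to 292.1, 203.1 and 262.2 CPM in knockdown libraries, against 129.8, 124.3 and 115.6 CPM in control libraries. That sum was chosen after the values were seen, and Tsp42Ed and Tsp42Ef hold most of it. The other tetraspanins summed to 197.6, 205.4 and 180.1 CPM in knockdown libraries, against 274.8, 231.4 and 232.3 CPM in control libraries, with separate groups.

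The make-up of tetraspanin RNA was set out per length, with no test. Per kb of exon, Tsp42Ee held 31.6%, 36.8% and 36.7% of the summed tetraspanin level in knockdown libraries, against 51.5%, 46.2% and 48.8% in control libraries. Tsp42Ed held 24.4%, 18.8% and 20.9% in knockdown libraries, against 5.6%, 6.54% and 4.46% in control libraries. By mean level per kb, Tsp42Ed had rank 2 in knockdown cells and rank 7 in control cells. On this scale it had 95.9 ± 17.8 CPM per kb in knockdown libraries and 24.4 ± 4.97 CPM per kb in control libraries, and Tsp42Ee had 156.1 ± 10.7 and 216.3 ± 35.1 CPM per kb (SD, n = 3 each). In knockdown cells Tsp42Ef (49.3 ± 1.14 CPM per kb) had rank 3, and Tsp39D (21.6 ± 3.23) and Tsp86D (19.1 ± 3.12) followed, then lbm (15.5 ± 1.25), Tsp66E (14.7 ± 4.36), Tsp3A (14.4 ± 2.82), Tsp2A (13.8 ± 6.35), Tsp42Ea (12.2 ± 5.3) and Tsp42Eg (10.1 ± 7.74 CPM per kb), where each gene's mean ± SD overlapped that of the next, starting with Tsp39D. In control cells Tsp42Ee was followed by Tsp42Ef at 52.4 ± 1.68 CPM per kb. Below it Tsp39D (34.0 ± 7.73), Tsp2A (28.4 ± 4.03), Tsp86D (25.3 ± 3.32), Tsp3A (25.0 ± 0.809) and Tsp42Ed followed, again with each mean ± SD overlapping that of the next. The cluster as a whole made up 80.2%, 74.6% and 80.1% of the per-length sum in knockdown libraries, against 71.8%, 69.5% and 69.9% in control libraries.

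**Figure D4:**
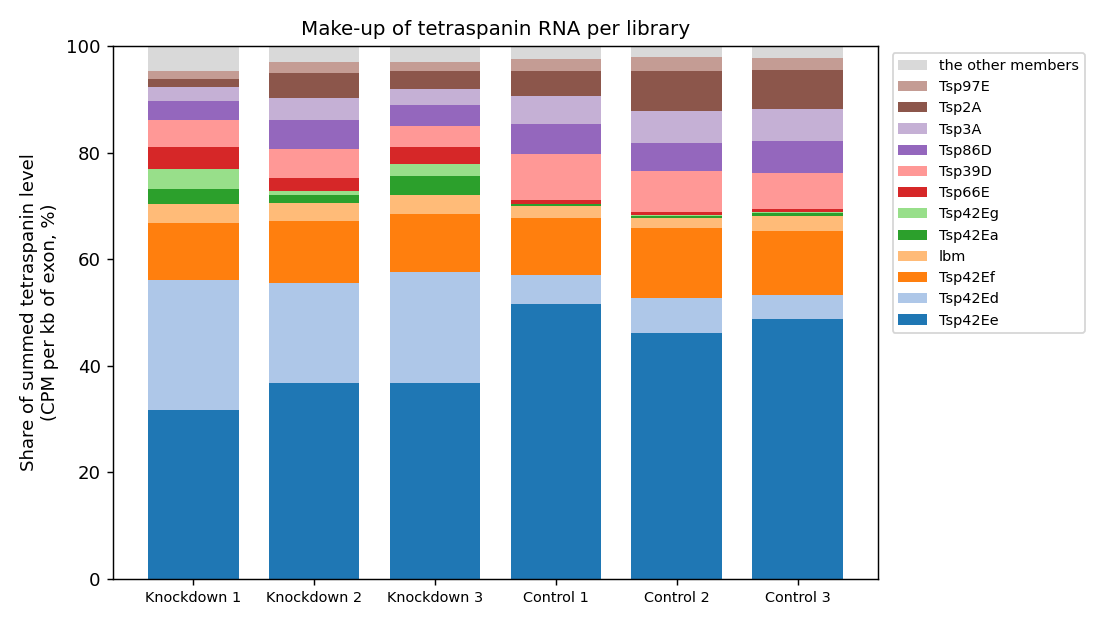
Share of each tetraspanin gene in the summed tetraspanin level (CPM per kb of exon, in percent) in each knockdown and control library; the 12 genes shown by name are followed by the other members together in grey. Tsp42Ee takes 31.6% to 36.8% in knockdown libraries and 46.2% to 51.5% in control libraries, and Tsp42Ed 18.8% to 24.4% and 4.46% to 6.54%.

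A partner list of 15 genes was drawn from proteases, Notch, integrins and septate junction genes, some of them only relatives or ligands of tetraspanin partners. Of these, 14 were tested, 2 were called higher (14.3%) and 1 lower (7.14%), against 8.05% and 9.63% of all tested genes. Their median log2 fold change was 0.12. The protease gene kuz had 339.9, 369.1 and 357.8 CPM in knockdown libraries, against 434.4, 500.9 and 434.8 CPM in control libraries, separate groups without a call (log2 -0.36, SE 0.124, edgeR adjusted p = 0.0862; called lower by DESeq2, 0.0241, and with total counts, 0.0154). Its relatives Kul and Tace, the receptor gene N at 100.2 ± 10.9 CPM in knockdown and 108.8 ± 10.6 CPM in control libraries (SD, n = 3 each), and its ligand gene Dl, at about 0.1 CPM, had overlapping groups and edgeR adjusted p of at least 0.372.

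Among integrin genes, the beta subunit gene mys was high in both groups, at 442.8 ± 95.7 CPM in knockdown and 375.9 ± 64.4 CPM in control libraries (SD, n = 3 each), without a call (edgeR adjusted p = 0.452). The alpha subunit genes differed among themselves. The gene if had 6.32, 5.89 and 7.54 CPM in knockdown libraries, against 1.88, 3.37 and 3.79 CPM in control libraries, and was called higher (log2 1.13, SE 0.286, edgeR adjusted p = 0.0377), as was ItgaPS5 at about 1 CPM (log2 1.29, SE 0.327, edgeR adjusted p = 0.038). The gene mew had 1.15, 2.02 and 1.37 CPM in knockdown libraries, against 3.36, 2.5 and 3.87 CPM in control libraries, and was called lower (log2 -1.10, SE 0.297, edgeR adjusted p = 0.0456). All 3 calls were lost with no filter (0.0676 to 0.0805) and when single libraries were left out: if without any but control replicate 3, ItgaPS5 without any but control replicate 2, mew without any but knockdown replicate 2. Scaling by total counts also ended the calls of if (0.123) and ItgaPS5 (0.066), and upper quartile scaling (0.059) and the replicate block (0.0544) that of mew. The genes scb, ItgaPS4 and Itgbn were not called.

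Of the partners of Tsp2A in smooth septate junctions, Ssk had 7.07, 9.71 and 6.3 CPM in knockdown libraries, against 12.3, 13.5 and 10.1 CPM in control libraries. Its groups were separate without a call (log2 -0.64, SE 0.211, edgeR adjusted p = 0.0786). Ssk was called lower with the replicate block (0.0269), DESeq2 (0.0206), total counts (0.0177) and without knockdown replicate 2 (0.0368). The gene mesh stayed under 0.6 CPM in each library, and hoka, listed as CG13704, was at 0 in all 6.

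In each of the 7 called tetraspanin genes, knockdown replicate 2 was the knockdown library nearest to the control mean. Over all 2049 called genes this library was the nearest for 70.2%, replicate 3 for 20.8% and replicate 1 for 8.98%. Its Brr2 level, 94.0 CPM, was the lowest of the 3 knockdown libraries. The part of this library in the results was not tested beyond the fits without it, in which 5 tetraspanin genes were called higher and 3 lower.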

How the data were processed

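RNA from S2 cells was sequenced after depletion of ribosomal RNA, per the labels' protocols. Trimmomatic, TopHat2 and build BDGP6 are named, without versions, in the submitters' processing notes; how reads were counted, including strand and reads with several hits, was not given in the sources used here. Estimated counts per gene and transposon copy were deposited by the authors as whole numbers, not scaled between libraries, for 23882 features. Genes that share sequence are therefore uncertain, and whether the Tsp42E paralogs share reads was not tested. Positions and exon lengths came from the Ensembl release 115 annotation (BDGP6.54), matched by identifier, a later release than the notes name.

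Counts of all 6 libraries entered 1 quasi-likelihood fit (edgeR 4.0.16, R 4.3.3), 2-sided, after filterByExpr and TMM scaling and without a replicate block, adjusted by Benjamini-Hochberg over all 14167 tested features. SE was taken as the size of the log2 fold change divided by the root of F. The procedure was also run on simulated counts drawn without a replicate effect, and no result above rests on that run. An exact 2-sided permutation test on 3 against 3 libraries cannot go below p = 0.1. Every member of the family and of the partner list was named, with the neighbours of the cluster. Members and lists were chosen with earlier results of these data known. Alternatives were other scalings and filters, genes only, DESeq2 1.42.0, limma 3.58.1 (voom), a fit with the replicate block, and fits without single libraries.

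Both groups carry replicate numbers 1 to 3 in their titles. Deviations from the group means correlated at 0.16, 0.239 and 0.317 between same-numbered libraries of the 2 groups and at -0.229 to 0.0506 between others, so the numbers were taken to pair the samples; the labels do not state a pairing. The main fit does not use this pairing, and only the fit with the replicate block does. Chi-square per degree of freedom between libraries of 1 group was 103.3 to 1442, above sampling noise.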

Additional observations from a re-analysis of the deposited data

How the results depend on the processing

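The count of tetraspanin genes called higher (5) was 4 to 5 and that called lower (2) was 0 to 3 when single libraries were left out. In the cluster these ranges were 3 to 4 higher and 0 lower, outside it 1 higher and 0 to 3 lower, and over all genes 342 to 917 higher and 281 to 1115 lower. DESeq2 called 8 tetraspanin genes higher and 6 lower (outside the cluster 2 and 5, in the cluster 1 lower), and in all 1300 genes higher and 1890 lower. With total counts 8 tetraspanin genes were lower, 2 in the cluster and 6 outside it, and 573 genes were higher and 2788 lower in all. With no filter the counts over all genes were 598 and 660. With the replicate block 4 tetraspanin genes outside the cluster were lower and 2 higher, and with a minimum mean of 1 CPM 2 were higher. Over all genes the block called 1311 higher and 1655 lower, and the 1 CPM minimum 964 and 1087. Besides the calls named above, the block changed no other call of a tetraspanin, partner or neighbouring gene. The cluster's median log2 fold change of 1.20 was 0.78 with the 1 CPM minimum, 1.74 with limma voom and 0.91 to 1.58 without single libraries; that of the other tetraspanins was -0.69 with total counts and -0.46 to -0.31 without single libraries. Over all members with counts, an alternative chosen after seeing the data, these medians were 0.14 and -0.01, and 0.01 over all genes with counts. That alternative uses log2(mean CPM + 1), on which the added 1 CPM draws the ratios of low genes toward no change. It also takes in members too low to test, and the cause of none of these shifts was tested.

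Changes of sign occurred only in genes without a call. With total counts the log2 fold change was -0.09 for Tsp29Fb, -0.13 for Tsp42Ep, -0.25 for Kul, -0.29 for Dl, -0.08 for mys, -0.11 for Itgbn, -0.04 for CG43647, -0.18 for CG17002 and -0.06 for CG30157. That of Tsp33B was 0.00 with the block and 0.03 with limma voom, and that of Tsp42Ef 0.03 with upper quartile scaling. Without single libraries the range was -0.23 to 0.49 for Tsp29Fb, -0.05 to 0.47 for Tsp42Ep, -0.13 to 1.23 for Tsp42Ek, -0.59 to 0.22 for Tsp33B, -0.18 to 0.40 for Kul, -0.15 to 0.27 for Dl and -0.12 to 0.85 for CG43647.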
